A study of Rattus norvegicus with 6 samples.

Results

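The genes described here make up the endothelin system of the blood vessel wall: the ligand genes Edn1 and Edn3, the converting enzyme genes Ece1 and Ece2, and the receptor genes Ednra and Ednrb. They were picked by gene symbol, and all 6 were found among the 24005 symbols of the deposited table, 18430 of them detected (above 0 FPKM in any library). The samples were aortas of rats with chronic kidney disease, a condition in which the vessel wall calcifies. In both groups the disease had been made surgically, by a 5/6 nephrectomy in 2 steps, and both groups ate a diet with 1.2% phosphorus to speed up calcification. The treated rats received engineered exosomes, small vesicles released by cells that the labels name ANCR/E7-EXO, at 10 mg/kg, injected into a tail vein at 5-day intervals. Saline in an equal volume was given to the control rats, over 13 weeks. Each group held 3 libraries, called exosome 1 to 3 and saline 1 to 3 here. Both groups had diseased kidneys, and healthy aorta was not analysed here. The sources used here do not give strain, age or sex, or say whether each library came from 1 rat.

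Endothelins are short peptides that constrict blood vessels. Endothelial cells, which line the vessel, make a long precursor that furin-like proteases trim to big endothelin, and endothelin-converting enzymes cut this to the active form. The peptide then acts on 2 receptors. The type A receptor, on smooth muscle, raises intracellular calcium through Gq proteins and drives contraction, and the type B receptor, on endothelium, releases nitric oxide and clears the peptide, while its copies on smooth muscle also constrict. In kidney failure the system is studied as a source of high blood pressure and of changes in the arterial wall.

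The promoters of the ligand gene and of both receptor genes are shown because the results below turn on the level of Edn1, on the balance of its receptors, and on transcription factors known to act on Edn1. Each run holds the 250 bases before the annotated gene start, 5′ to 3′ on the gene's strand, from RefSeq on the GRCr8 build, where Edn1 lies at chr17:22666688-22666937 on the minus strand, Ednra at chr19:47137674-47137923 on the plus strand and Ednrb at chr15:87086766-87087015 on the minus strand. Capitals mark matches to AGATAA for factors of the GATA family, TGACTNA for AP-1 (the Jun and Fos dimer), ACGTG for hypoxia-inducible factors, GTCTGNC for SMAD factors and GTAAACA for FOXO factors, each searched on both strands, and to TATAAA for the TATA box on the gene's strand.
Edn1: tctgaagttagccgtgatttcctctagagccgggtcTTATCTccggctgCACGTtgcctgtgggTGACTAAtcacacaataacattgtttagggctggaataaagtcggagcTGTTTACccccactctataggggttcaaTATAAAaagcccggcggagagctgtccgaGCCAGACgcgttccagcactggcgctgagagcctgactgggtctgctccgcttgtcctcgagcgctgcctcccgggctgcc
Ednra: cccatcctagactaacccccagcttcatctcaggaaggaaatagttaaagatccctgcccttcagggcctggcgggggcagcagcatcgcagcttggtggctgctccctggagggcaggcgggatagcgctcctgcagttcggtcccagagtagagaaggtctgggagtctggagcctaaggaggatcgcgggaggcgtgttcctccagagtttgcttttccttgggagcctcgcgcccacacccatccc
Ednrb: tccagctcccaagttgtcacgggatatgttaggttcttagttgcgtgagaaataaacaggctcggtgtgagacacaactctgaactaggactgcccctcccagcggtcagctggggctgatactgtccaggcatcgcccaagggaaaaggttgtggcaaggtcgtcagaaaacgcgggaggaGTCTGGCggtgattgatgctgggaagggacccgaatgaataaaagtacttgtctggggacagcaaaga

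The Edn1 promoter held 1 match to each of the 6 motifs. The GATA match began 214 bases before the start, the hypoxia match 201, the AP-1 match 186, the FOXO match 138, the TATA match 110 and the SMAD match 81. No 2 of these matches overlapped. Ednrb held 1 SMAD match, 68 bases before the start, and the windows of Ednra, Ece1 and Ece2 held no match to these letters. Among the 33469 promoters of the table, cut to the same length, 10.3% held the GATA letters, 11.5% the AP-1 letters, 16.6% the hypoxia letters, 12.4% the SMAD letters, 3.2% the FOXO letters and 8.1% the TATA letters. A match to letters is a description and not a measured binding site.

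Expression was deposited as FPKM, a read count per gene length and per library total, which allows levels of different genes to be set side by side. The steps between FPKM values implied library totals of 28063355 to 44561082 reads. Genes were tested with limma on log2(FPKM + 1), exosome minus saline, over the 11742 genes with a mean of at least 1 FPKM, with Benjamini-Hochberg adjustment. Over all of them 1 gene passed an adjusted p of 0.05, Zbtb16, which is 0.00852% of the genes tested, and it was higher. No gene was lower past that threshold, as also in voom on recovered reads, while 792 were higher and 1085 lower at an unadjusted p under 0.05. The median log2 difference of all genes tested was -0.07. Contractile smooth muscle genes were plentiful, at a summed 15266 to 21612 FPKM over 8 markers in exosome libraries and 13716 to 21542 FPKM in saline libraries, and all 8 were tested.

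None of the 6 endothelin genes passed the threshold. Of the 5 that reached the expression minimum, Edn1, Ece1 and Ednrb were higher on average in exosome libraries and Ednra and Ece2 were lower, with a median log2 difference of 0.27. The groups did not overlap for 1 of the 5, Ednra, which was lower, where 21.1% of all genes tested had groups that did not overlap and 11.7% had all exosome libraries below all saline libraries. Counts of this size are close to those of the whole table.

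**Figure D1:**
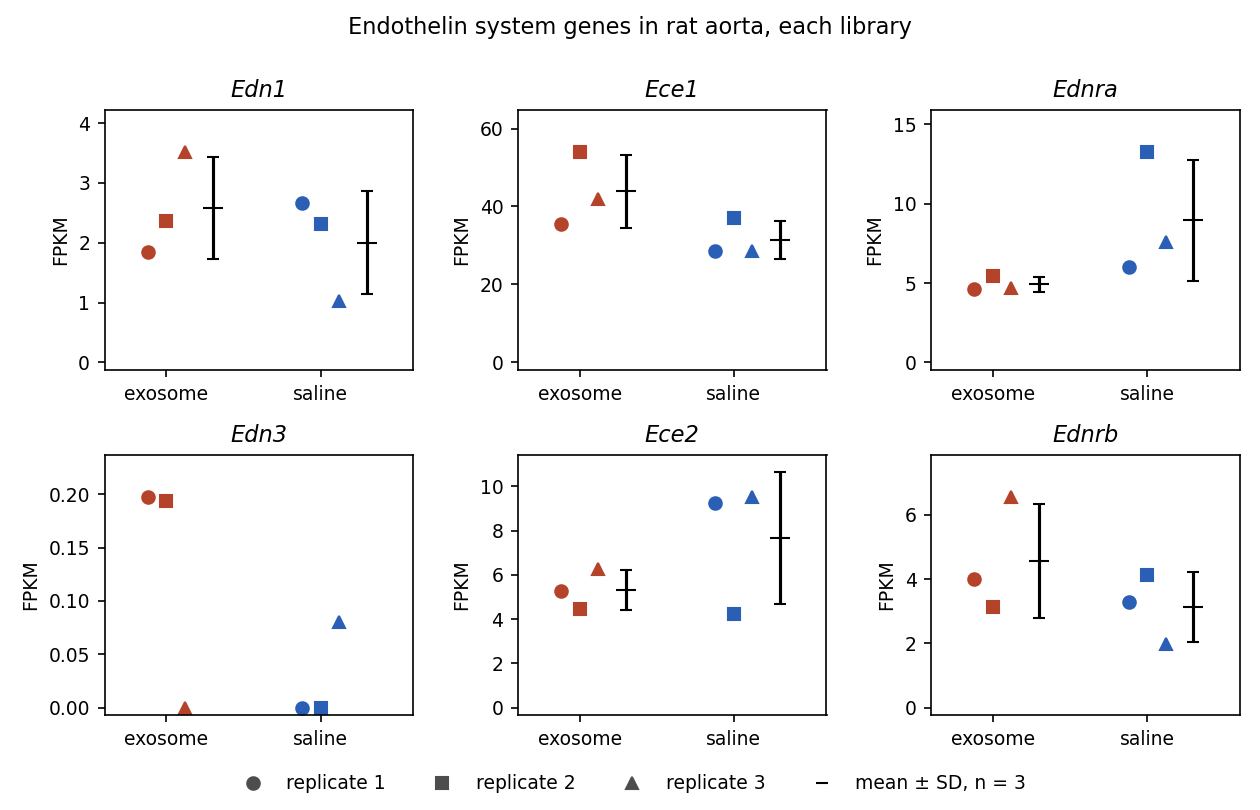
FPKM (vertical axes, each starting near 0) of the 6 endothelin genes in every library, exosome (red) left of saline (blue), with the marker shape giving the replicate number and bars giving mean ± SD (n = 3 each, left out for Edn3, which is listed at 0 in 3 libraries). The groups are apart for Ednra alone, where the exosome libraries lie between 4.60 and 5.44 FPKM and the saline libraries between 5.99 and 13.3 FPKM.

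The ligand gene Edn1 was a low transcript in this tissue. It stood at 1.85, 2.36 and 3.52 FPKM in exosome 1, 2 and 3, against 2.66, 2.31 and 1.03 FPKM in saline 1, 2 and 3. The groups overlapped, with exosome 3 the highest library and saline 3 the lowest. The means were 2.58 ± 0.855 FPKM with exosomes and 2.0 ± 0.859 FPKM with saline (SD, n = 3 each). The log2 difference was 0.27 with a 95% interval of -0.36 to 0.91, and limma gave an adjusted p of 0.614. The values rest on 118, 123 and 291 reads in the exosome libraries and 166, 127 and 65 reads in the saline libraries, so counting alone gives an error of 5.86% to 12.4% of each value. The spread between libraries, an SD of 33.2% of the mean with exosomes and 43.0% with saline, was larger than this. Without saline 3 the log2 difference was 0.01 and without exosome 3 it was 0.09, whereas it was 0.44 without saline 1 and 0.42 without exosome 1.

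Edn3, whose peptide acts mainly on the type B receptor, was close to the detection limit. It stood at 0.197 and 0.193 FPKM in exosome 1 and 2 and was listed at 0 in exosome 3, against 0 in saline 1 and 2 and 0.0798 FPKM in saline 3. These values correspond to 5 and 4 reads in the exosome libraries and 2 reads in saline 3, or to a common multiple of these numbers. Edn3 did not reach the expression minimum. In a fit with no filter over 18430 genes its log2 difference was 0.13, with an adjusted p of 0.509 in limma, and no fold is given for counts so small. The remaining ligand gene, Edn2, was listed at 0 in all 6 libraries.

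Ece1, which encodes the converting enzyme that releases active endothelin-1, was the most abundant gene of the system. It stood at 35.6, 54.0 and 42.0 FPKM in exosome 1, 2 and 3, against 28.6, 37.1 and 28.5 FPKM in saline 1, 2 and 3. Only exosome 1 lay within the saline range, just below saline 2. The means were 43.9 ± 9.35 FPKM with exosomes and 31.4 ± 4.94 FPKM with saline (SD, n = 3 each), a ratio of 1.396. The log2 difference was 0.46 with a 95% interval of 0.05 to 0.87 before adjustment, and the adjusted p in limma was 0.291. Without exosome 2, the highest library, the difference was 0.30. The gene ranked 1349 of 11742 by unadjusted p. Its values rest on 3953 to 7691 reads per library, so counting error was at most 1.59% of a value.

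Most endothelial markers were also higher on average with exosomes. Their summed level over 12 genes was 181, 261 and 184 FPKM in exosome 1, 2 and 3, against 146, 178 and 133 FPKM in saline 1, 2 and 3. Pecam1 (mean 51.9 FPKM with exosomes, 31.1 FPKM with saline) and Vwf (33.8 and 18.4 FPKM) made up much of the difference in the sum. Of the 11 markers tested 8 were higher and none passed the threshold, with a median log2 difference of 0.24. The groups were apart for 4 of the 11, against 21.1% of all genes tested. Kdr (log2 difference -0.29), Erg (-0.11) and Egfl7 (-0.07) were lower, and the groups overlapped for Cdh5 (0.23). The log2 difference was 0.90 for the tight junction gene Cldn5 and 0.49 for the adhesion gene Esam (adjusted p = 0.261 in limma for each). In bulk tissue, more cells of a type and more RNA per cell cannot be told apart.

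Ece1 and Edn1 were therefore each set beside these markers within every library, as the log2(FPKM + 1) of the gene minus the mean of the 12 markers. For Ece1, a comparison chosen after the values were seen, the result was 1.69, 1.91 and 1.83 in exosome 1, 2 and 3, against 1.56, 1.66 and 1.66 in saline 1, 2 and 3. The exosome libraries lay above the saline libraries by 0.18 on average, which is less than the 0.46 for Ece1 alone. This value depends on the markers averaged. Cldn5 (log2 difference 0.90), Vwf (0.79), Pecam1 (0.70) and Esam (0.49) rose more than Ece1, and the other tested markers rose less or were lower. Ece1 was not set beside a smaller set of markers. The exact two-sided permutation test gave p = 0.1, the smallest that 3 libraries against 3 can give. For Edn1 the result was -1.997, -2.12 and -1.42 in exosome 1, 2 and 3, against -1.45, -1.87 and -2.20 in saline 1, 2 and 3. The groups overlapped fully, and the mean difference of -0.005 gave an exact permutation p of 1. Its sign turned to positive with a pseudocount of 0.1, where the difference was 0.16, and without exosome 1, exosome 2 or saline 1, where it was 0.07, 0.13 and 0.19.

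Ece2, a related enzyme that works at acid pH and is best known from nerve tissue, stood at 5.26, 4.44 and 6.27 FPKM in exosome 1, 2 and 3, against 9.25, 4.24 and 9.52 FPKM in saline 1, 2 and 3. Saline 1 and 3 lay above every exosome library, and saline 2 lay below all of them. The log2 difference was -0.40 with a 95% interval of -1.05 to 0.25 (adjusted p = 0.478 in limma). Without saline 2 it was -0.73, without saline 1 it was -0.24 and without saline 3 it was -0.22, and none of these passed (adjusted p = 0.463, 0.675 and 0.814 in limma). The 3 mesothelial cell markers, genes of the sheet of cells that covers body cavities, summed to 0.186, 0.228 and 3.91 FPKM in exosome 1, 2 and 3, against 20.2, 0.167 and 8.24 FPKM in saline 1, 2 and 3. They were highest in saline 1 and 3, then in exosome 3, and lowest in saline 2, as Ece2 was. The part of these cells in the Ece2 value was not tested. Ece1 exceeded Ece2 in every library. The ratio of their FPKM values was 6.77, 12.2 and 6.70 in exosome 1, 2 and 3, against 3.10, 8.76 and 2.99 in saline 1, 2 and 3, and the exact permutation p of the log2 ratio was 0.3.

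Ednra encodes the type A receptor, the constrictor receptor of smooth muscle. It stood at 4.60, 5.44 and 4.69 FPKM in exosome 1, 2 and 3, against 5.99, 13.3 and 7.61 FPKM in saline 1, 2 and 3. All exosome libraries lay below all saline libraries, close together, whereas the saline libraries were spread widely. The means were 4.91 ± 0.457 FPKM with exosomes and 8.96 ± 3.82 FPKM with saline (SD, n = 3 each), a ratio of 0.548. The log2 difference was -0.69 with a 95% interval of -1.28 to -0.10 before adjustment, and the adjusted p in limma was 0.289. The gene ranked 1128 of 11742 by unadjusted p, and its values rest on 698 to 1801 reads per library.

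Saline 2 set much of the size of this difference. Without it the log2 difference of Ednra was -0.39 (adjusted p = 0.497 in limma), and without any other single library it was -0.91 to -0.65. Saline 2 was also the library with the highest summed adipocyte markers, 1084 FPKM, where the exosome libraries held 356 to 627 FPKM and the other saline libraries 317 and 352 FPKM. Its summed Schwann cell markers were the highest too, at 44.5 FPKM, but the single gene S100b made up 39.2 FPKM of that. The sums were 13.7 to 28.8 FPKM in the exosome libraries and 14.6 and 24.3 FPKM in the other saline libraries. The Schwann cell markers Sox10 (0.0693 FPKM) and Cdh19 (0.0490 FPKM), both below the expression minimum, were lower in saline 2 than in any other library. The share of reads on mitochondrial genes was highest in saline 2, at 6.77%. It was 3.91% to 4.82% in the exosome libraries and 4.497% and 4.896% in saline 1 and 3. The part of these cells and of the mitochondrial share in the Ednra value was not tested. Set beside the mean of the 8 smooth muscle markers within each library, a comparison chosen after the values were seen, Ednra stood at -7.23, -6.76 and -6.98 log2 units in exosome 1, 2 and 3, against -6.70, -5.38 and -6.14 in saline 1, 2 and 3. The groups were apart here as well, by 0.92 log2 units on average with exosomes lower, and the exact permutation p was 0.1, again the smallest possible. Without saline 2 that difference was -0.57. Of the 8 markers 5 were higher with exosomes and 3 lower, with a median log2 difference of 0.20. Myocd (0.94) and Des (0.57) rose most, and none passed the threshold. The 0.92 therefore includes a rise of the marker mean and is not a fall of Ednra alone.

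Ednrb encodes the type B receptor. It stood at 4.01, 3.13 and 6.56 FPKM in exosome 1, 2 and 3, against 3.28, 4.14 and 1.98 FPKM in saline 1, 2 and 3. Exosome 3 was the highest library and saline 3 the lowest, and the remaining 4 lay between 3.13 and 4.14 FPKM. The means were 4.57 ± 1.78 FPKM with exosomes and 3.13 ± 1.09 FPKM with saline (SD, n = 3 each). The log2 difference was 0.42 with a 95% interval of -0.24 to 1.07 (adjusted p = 0.460 in limma). Without exosome 3 it was 0.17 and without saline 3 it was 0.20.

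Ednrb is also a gene of melanocytes and of glial cells. The melanocyte markers Dct and Tyr were at 0 in all libraries, and the 5 melanocyte markers together summed to 0.392 to 0.645 FPKM with exosomes and 0.322 to 0.445 FPKM with saline. None of them reached the expression minimum. The Schwann cell markers Sox10, Cdh19 and Pmp2 were below the minimum as well. The highest Schwann cell sum with exosomes, 28.8 FPKM, was in exosome 3, the library with the highest Ednrb. Over both groups the sum was highest in saline 2, at 44.5 FPKM, where Ednrb was 4.14 FPKM. Of that sum 39.2 FPKM was S100b. The part of Schwann cells in the Ednrb value was not tested.

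**Figure D2:**
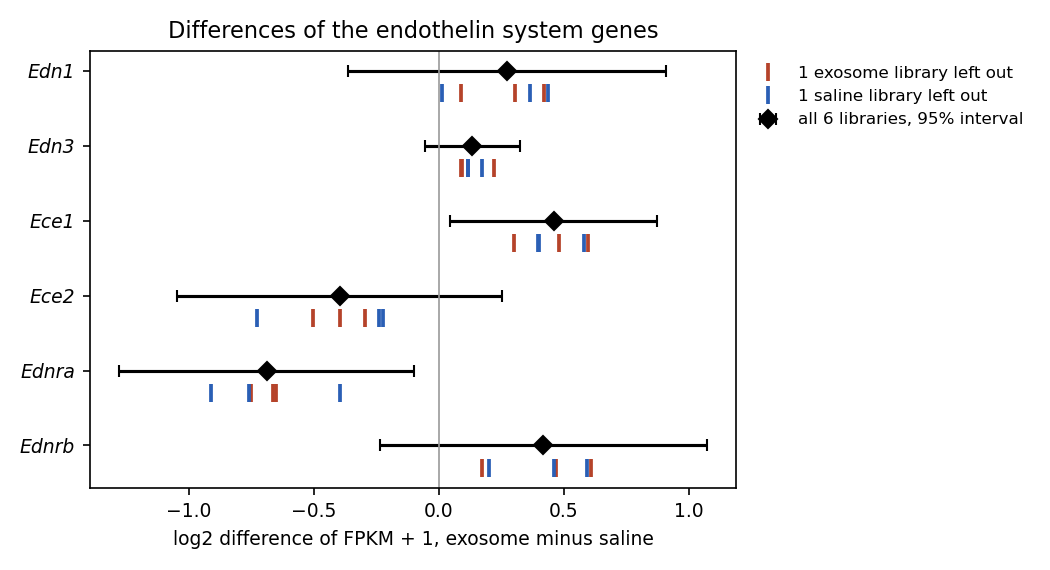
Log2 difference of FPKM + 1, exosome minus saline (horizontal axis), for each endothelin gene. Diamonds with bars are the fit to all 6 libraries with its unadjusted 95% interval, and the ticks below them are fits without 1 exosome library (red) or 1 saline library (blue). No gene changed its sign in the fits without 1 library, and the interval excluded 0 for Ednra and Ece1 only.

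The balance of the receptors was measured as the ratio of Ednra to Ednrb within each library, which does not depend on how a library is scaled. Ednra stood at 1.15, 1.74 and 0.716 times Ednrb in exosome 1, 2 and 3, against 1.83, 3.20 and 3.85 times in saline 1, 2 and 3. Every exosome library thus had a lower ratio than every saline library, though exosome 2 and saline 1 were nearly equal, and in exosome 3 alone the type B transcript was the more abundant. The log2 ratio averaged 0.17 ± 0.64 with exosomes and 1.498 ± 0.56 with saline (SD, n = 3 each), a difference of -1.33. The exact two-sided permutation test gave p = 0.1, the smallest that 3 against 3 allows, so the design cannot pass 0.05. Without 1 library at a time the difference was between -1.64 and -0.999.

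**Figure D3:**
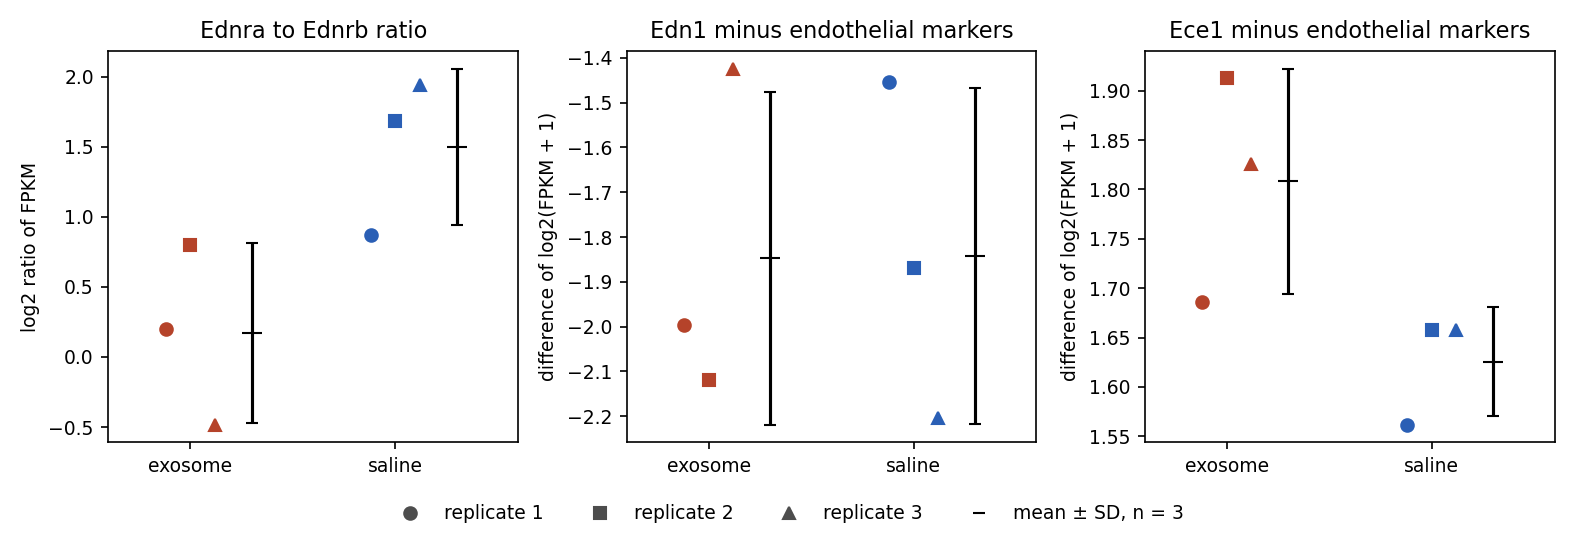
Values taken within each library, exosome (red) left of saline (blue): the log2 ratio of Ednra to Ednrb (left), and the log2(FPKM + 1) of Edn1 (middle) and of Ece1 (right) minus the mean of the 12 endothelial markers. Bars are mean ± SD (n = 3 each), and the vertical axes do not start at 0. The groups are apart for the receptor ratio, with exosomes lower, and for Ece1, with exosomes higher by 0.18, while those of Edn1 overlap.

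Over all 6 libraries the order of the levels was Ece1 (mean 37.6 FPKM), Ednra (6.93), Ece2 (6.50), Ednrb (3.85), Edn1 (2.29) and Edn3 (0.0784). Ece1 was above 84.5% of the genes tested, Ednra above 37.5%, Ece2 above 35.7%, Ednrb above 22.3% and Edn1 above 12.3%. Ece1 lay above Ednra in every library with ranges apart in both groups. Ednra and Ece2 could not be ordered, since Ednra was the higher in 1 of 3 exosome libraries and 1 of 3 saline libraries. Ece2 exceeded Ednrb in 2 of 3 exosome libraries and 3 of 3 saline libraries. Ednrb exceeded Edn1 in all 6 libraries, although the ranges overlapped within each group.

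The genes whose pattern over the 6 libraries was most like that of an endothelin gene were ranked by the root mean square difference of the log2 deviations from each gene's mean, as a description of 6 points. For Ece1 these were Afap1l2 (0.0548), Kank3 (0.0586) and Icam2 (0.0696), an adhesion molecule of endothelial cells. Icam2 stood at 8.43, 11.97 and 9.74 FPKM in exosome 1, 2 and 3, against 5.86, 9.14 and 6.19 FPKM in saline 1, 2 and 3, with exosome 2 highest in the treated group and saline 2 in the control group as for Ece1. For Ednra they were Dapk2 (0.118), a death-associated protein kinase, Rasgrf2 (0.123), an activator of Ras, and Tuba1c (0.123), an alpha-tubulin. Dapk2 stood at 5.01, 6.18 and 4.27 FPKM in exosome 1, 2 and 3, against 5.29, 14.3 and 8.10 FPKM in saline 1, 2 and 3, with the same peak in saline 2. Unlike those of Ednra, its groups overlapped, since saline 1 lay below exosome 2. For Ednrb they were Fam101b (0.126), B3gnt2 (0.130) and Tppp3 (0.142). For Edn1 they were Ppargc1b (0.124), Cdc42ep5 (0.160) and Ccdc141 (0.161). For Ece2 they were Dlx5 (0.0981), a homeobox factor of bone formation, Clic3 (0.112) and a gene listed as LOC100912481 (0.138). Dlx5 stood at 0.725, 0.546 and 1.38 FPKM in exosome 1, 2 and 3, against 1.94, 0.484 and 1.75 FPKM in saline 1, 2 and 3, so saline 2 was the lowest library for both genes.

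The wider pathway was read from 4 lists, in which genes with groups apart are to be read against the 21.1% of all genes tested that have them. Among genes that process or clear endothelin, 5 of 10 reached the expression minimum, 3 were higher and 2 lower, and none passed. Edn2 and Ecel1 were listed at 0 in all libraries, and Mmel1, Kel and the mast cell chymase gene Cma1 stayed below the minimum. Furin, the protease that trims the precursor, stood at 28.0, 26.6 and 36.1 FPKM in exosome 1, 2 and 3, against 24.9, 20.8 and 19.8 FPKM in saline 1, 2 and 3. All exosome libraries were above all saline libraries, by a log2 difference of 0.44 (adjusted p = 0.281 in limma). The related convertase genes Pcsk7 (log2 difference 0.12) and Pcsk6 (-0.06) and the neprilysin gene Mme (-0.03), whose enzyme degrades endothelin, had groups that overlapped. The median of the list was 0.01.

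Of 20 genes for the G protein, phospholipase C and calcium steps downstream of the receptors, 18 were tested, 11 were higher and 7 lower, and none passed. The median log2 difference was 0.04, and the groups were apart for 2 of the 18, a smaller share than the 21.1% of all genes tested. Prkcd, which encodes protein kinase C delta, was the higher of these. It stood at 43.3, 41.7 and 45.6 FPKM in exosome 1, 2 and 3, against 32.8, 36.3 and 31.6 FPKM in saline 1, 2 and 3 (log2 difference 0.37, adjusted p = 0.256 in limma). Cacna1c, the pore subunit of the L-type calcium channel, was the lower of them, at 15.5, 12.8 and 11.8 FPKM in exosome 1, 2 and 3, against 18.4, 16.2 and 18.9 FPKM in saline 1, 2 and 3 (log2 difference -0.40, adjusted p = 0.277). The groups overlapped for Trpc6, a cation channel opened by diacylglycerol, with a log2 difference of 0.78 (adjusted p = 0.334), and for Plcb4, a phospholipase C acting below Gq, with one of -0.21 (adjusted p = 0.391).

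Among genes of receptor desensitisation 10 of 11 were tested, 6 were higher and 4 lower, none passed, and the median was 0.16. The groups were apart for 3 of the 10, of which 2 were higher. Grk5, a receptor kinase, stood at 24.4, 25.1 and 26.9 FPKM in exosome 1, 2 and 3, against 20.3, 20.1 and 18.8 FPKM in saline 1, 2 and 3. Its groups were apart, by a log2 difference of 0.35 (adjusted p = 0.256 in limma). Of the regulators that shorten G protein signals, Rgs16 was higher with groups apart (log2 difference 0.54, adjusted p = 0.281), and Rgs5 (0.39, adjusted p = 0.315) and Rgs2 (-0.83, adjusted p = 0.324) had groups that overlapped.

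Of 14 transcription factors known to act on Edn1, 13 were tested, 7 were higher and 6 lower, none passed, and the median was 0.04. The groups were apart for 4 of the 13, of which 2 were lower, where 11.7% of all genes tested were lower with groups apart. The factors with the lowest p were the AP-1 genes, whose letters stand 186 bases before the Edn1 start. Jun stood at 57.8, 53.2 and 54.96 FPKM in exosome 1, 2 and 3, against 74.3, 252.3 and 286.6 FPKM in saline 1, 2 and 3. All exosome libraries were below all saline libraries, by a log2 difference of -1.65 (adjusted p = 0.256 in limma). Fos stood at 8.06, 30.8 and 44.7 FPKM in exosome 1, 2 and 3, against 78.4, 48.4 and 115.8 FPKM in saline 1, 2 and 3, and its groups were apart as well (log2 difference -1.71, adjusted p = 0.284). Saline 3 had the most Jun and Fos and the least Edn1, the last from 65 reads. Among the exosome libraries Edn1 had the same order as Fos, from 1.85 FPKM in exosome 1 to 3.52 FPKM in exosome 3. Jun was highest in exosome 1 among them. Any link between these factors and the Edn1 level was not tested. Gata2, an endothelial GATA factor, had a log2 difference of 0.47 (adjusted p = 0.375) with groups that overlapped, and Smad2 one of 0.25 (adjusted p = 0.355) with groups apart.

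**Figure D4:**
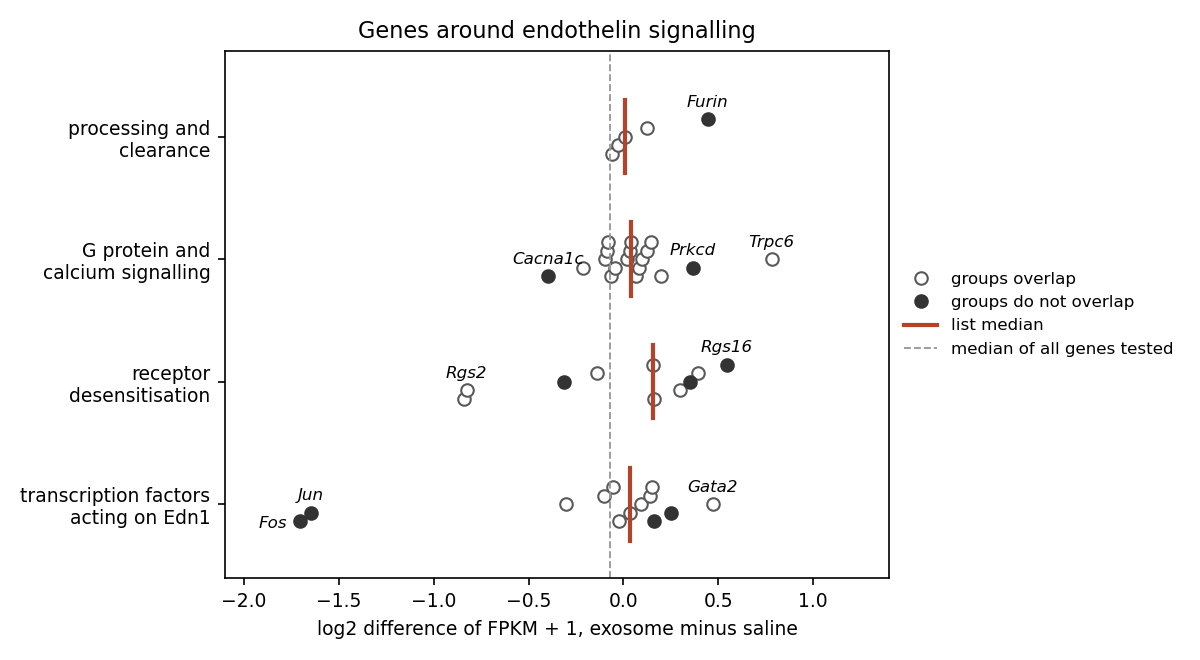
Log2 difference of FPKM + 1, exosome minus saline (horizontal axis), of every tested gene in the 4 pathway lists. Filled points are genes whose groups do not overlap, red bars are list medians (0.01, 0.04, 0.16 and 0.04 from top to bottom), and the dashed line is the median of all genes tested, -0.07. Fos and Jun lie farthest to the left and Trpc6 farthest to the right, and no gene passed the adjusted threshold.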

How the data were processed

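The 6 rat aorta libraries, 3 exosome and 3 saline by the treatment label, were prepared with a SMARTER kit, per the labels' protocols. Expression values in FPKM were deposited as 1 table, whose columns matched the sample titles. DESeq2 1.28.1 is listed, without a role, in the submitters' processing notes. The sources used here do not give the aligner, counting tool, strand setting, annotation or genome build. Overlapping, antisense and paralogous genes could therefore not be separated. The spread behind each p-value is that between these samples, which may be technical.

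Within each library, FPKM divided into whole reads for 18430 genes, 100.0% of those above 0, within 0.02 reads. The length of each gene was searched to give whole reads. This share therefore says little for genes above 0 in few libraries, such as Edn3. Recovered reads came to 98.6% to 98.9% of each implied total, and no 2 libraries were duplicates (chi-square of 49.0 to 191.2 per gene).

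Genes averaging at least 1 FPKM were tested in limma 3.58.1 (R 4.3.3) on log2(FPKM + 1), two-sided, with an intensity trend and no covariate. This scale understates the change of low genes. Intervals are at 95% and unadjusted. Counting errors are the square root of the reads. The scripts were tested on simulated data. The members, gene lists and rules were chosen with earlier results of these data known, and 1 branch of the signalling list is not reported here. Named genes were all 6 members, and by smallest p up to 4 of each pathway list and up to 2 of a marker list. No gene is named from the adipocyte and mesothelial lists. The lists for fibroblasts, macrophages, lymphatic endothelium, and skeletal and cardiac muscle are not described here. The 3 genes most alike in pattern were named for members with an SD of at least 0.3. Further marker genes are named beside their sums. Alternatives were other pseudocounts, filters, scalings and moderation, library weights, a replicate block, voom on recovered reads and each library left out. RefSeq (GRCr8) promoters matched 5 of 6 members by symbol. Sequences, read recovery and plots used Python 3.11.15 with numpy 2.4.6, pandas 2.3.3 and also matplotlib 3.10.9.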

Additional observations from a re-analysis of the deposited data

How the results depend on the processing

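The log2 differences of all 6 endothelin genes kept their sign under every alternative run, and none passed the adjusted threshold under any of them except Ednra with library weights, at -0.84 (adjusted p = 0.0202 in limma; 0.161 to 0.623 under the other alternatives). The estimation of those weights, 9.20 for exosome 1 and 0.305 for exosome 2, stopped before reaching its tolerance, and they moved the calls over all genes to 983 higher and 2285 lower. Quantile normalization called 2 genes higher. Without 1 library at a time 0 to 2 genes were called higher and 0 to 7 lower, Edn1 relative to endothelial markers ranged from -0.22 to 0.19, and with a pseudocount of 0.1 it was 0.16. The cause was not tested. The replicate block called 1 gene higher and 0 lower and left the receptor ratio at -1.33 (exact p = 0.25, the smallest for 3 pairs). The titles give both groups the numbers 1 to 3, but deviations of same-numbered libraries correlated at 0.07, 0.10 and -0.17 over genes, so the numbers were not taken as pairs. List medians stayed within the spread between libraries except under scaling alternatives, weights, a minimum of 5 FPKM or a left-out exosome library for the signalling and desensitisation lists; that of the signalling list was -0.01 with a minimum of 5 FPKM and without exosome 2. With 65 to 291 reads, Edn1 is limited by counting more than the other tested members, and Edn3 cannot be compared at this depth.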
